A study of Mus musculus with 27 samples.

Results

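The giant ubiquitin ligases are 8 genes, listed in the deposited table as herc1, herc2, huwe1, mycbp2, birc6, ubr4, hectd4 and trip12, out of 26264 gene symbols. They were chosen from measured values, namely the difference between R55 and vehicle in these same libraries, so that this difference is given here as a description and not as a test. All 8 passed the filter of a mean of at least 1 FPKM (fragments per kilobase of transcript, scaled to the total of counted fragments) that left 12976 genes for testing. RNA came from a small block of lateral parietal associative cortex of female 5xFAD mice, a transgenic strain with amyloid pathology whose transgenes are driven by the neuronal Thy1 promoter, at 16 weeks of age. Every mouse, controls included, carried the transgenes and received 1 stereotaxic injection of 500 nL into 1 hemisphere, and tissue of the injected and the contralateral hemisphere was collected about 24 h later. Injections held R55 or R33 at 10 mM, 2 small molecules made to stabilize the retromer, or the vehicle of DMSO and sulfobutylether beta-cyclodextrin in saline alone. The 27 libraries came from 4 vehicle, 5 R33 and 5 R55 mice, with both hemispheres for 13 of the 14, the exception being R33 mouse AE with its injected hemisphere only. Mice are named by the letters of their labels.

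Ubiquitin is passed from an activating enzyme (E1) to a conjugating enzyme (E2) and then, with the help of a ligase (E3), to a substrate, which may be degraded by the proteasome or altered in its location or partners. HECT ligases take the ubiquitin onto a cysteine of their own before they pass it on, whereas most RING ligases bring the loaded E2 and the substrate together. The 8 members belong to the largest ligases of the cell, and several of them serve neurons in axon growth, synapse formation and the turnover of damaged protein. Herc1, Herc2, Huwe1, Hectd4 and Trip12 carry a HECT domain. Mycbp2 is a ligase of axons and synapses that carries a RING domain, and its mechanism is not described here. Ubr4 recognizes the N-terminal residues that mark proteins for degradation, and Birc6 combines E2 and E3 activity with the BIR domain of the inhibitors of apoptosis.

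The members lie on 8 chromosomes of GRCm39, the build the authors aligned to. Herc1 (ENSMUSG00000038664.18) covers chr9:66257699-66416057, Herc2 (ENSMUSG00000030451.18) chr7:55699874-55884371, Huwe1 (ENSMUSG00000025261.20) chrX:150583803-150718413 and Birc6 (ENSMUSG00000024073.18) chr17:74835275-75010363, all on the plus strand. Ubr4 (ENSMUSG00000066036.15) covers chr4:139079920-139216899 and Hectd4 (ENSMUSG00000042744.18) chr5:121358255-121506640 on the plus strand. Mycbp2 (ENSMUSG00000033004.18) covers chr14:103350847-103584277 and Trip12 (ENSMUSG00000026219.16) chr1:84698521-84837407 on the minus strand. The canonical transcript has between 41 exons in Trip12 and 106 in Ubr4. The transcript length behind the FPKM values, recovered from the table, was 9632 bp for Trip12 and 14624 bp for Huwe1 to 15872 bp for Ubr4 among the other 7. Exons of other annotated genes overlap those of every member but Herc2. Herc1 and Mycbp2 each have 3 such genes on the opposite strand, and Huwe1, Mycbp2 and Ubr4 each have 1 on the same strand. Whether strand was used in counting is not given in the sources used here. Fragments of such partners therefore cannot be told apart from those of the member, and on the same strand the strand alone would not separate them.

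Promoter sequence is shown for 3 members because the members moved together between libraries. Herc2 had the largest difference between R55 and vehicle, Hectd4 the largest between R33 and vehicle, and Mycbp2 carries a RING domain in place of a HECT domain. Each run holds the 200 bases before the start of the canonical transcript, read 5′ to 3′ on the strand of the gene from GRCm39, with capitals for the motifs that were searched. Searched on both strands were GGGCGG (the GC box), CCGGAAG (an ETS motif), CCAAT (the CCAAT box), TATAAA (the TATA box) and TGACGTCA (the CRE), none of which holds another.
Herc2, chr7:55699674-55699873, plus strand: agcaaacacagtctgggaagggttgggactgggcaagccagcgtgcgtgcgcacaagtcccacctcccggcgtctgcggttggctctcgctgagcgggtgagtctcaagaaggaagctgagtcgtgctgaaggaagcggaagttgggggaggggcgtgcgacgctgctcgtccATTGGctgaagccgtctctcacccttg
Mycbp2, chr14:103584278-103584477, minus strand: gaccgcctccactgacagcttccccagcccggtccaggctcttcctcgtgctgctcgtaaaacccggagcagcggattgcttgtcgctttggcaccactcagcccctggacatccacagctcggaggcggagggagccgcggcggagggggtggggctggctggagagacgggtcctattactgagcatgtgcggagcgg
Hectd4, chr5:121358055-121358254, plus strand: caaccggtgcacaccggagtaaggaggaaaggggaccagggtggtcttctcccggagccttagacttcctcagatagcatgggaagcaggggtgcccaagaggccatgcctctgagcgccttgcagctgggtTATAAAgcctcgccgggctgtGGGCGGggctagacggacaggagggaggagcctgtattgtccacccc
The GC box was found in 5 of the 8 members and in 47.5% of the same windows of 12172 tested protein-coding genes. The CCAAT box was in 1 member (Herc2) and 31.3% of all windows, and the TATA box in 1 member (Hectd4) and 4.95% of all windows. The ETS motif and the CRE were in no member, against 8.65% and 1.98% of all windows. The GC content of the members' windows was 54.5 to 66.5%, and the median of all windows was 58.5%. A match of letters is a description of the sequence and not of a bound site.

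Libraries held 15932196 to 38077026 fragments on genes. A member received between 1804 (Birc6) and 15881 (Hectd4) fragments in a library, a counting error of 2.35% down to 0.794%, so that counting error was far below the differences between mice. Huwe1, a HECT ligase whose substrates include the survival factor Mcl1 and Myc proteins, had the highest level, with 22.7 FPKM ± 3.90 (SD, n = 27 libraries). It was above Hectd4, the next in order, in 27 of 27 libraries. Hectd4, a HECT protein about which little is known, had 18.3 FPKM ± 3.23, Mycbp2 17.5 ± 3.04 and Trip12, which degrades ubiquitin-fusion substrates and acts in the DNA damage response, 16.8 ± 1.74. These neighbours did not separate: Hectd4 exceeded Mycbp2 in 16 of 27 libraries, and Mycbp2 exceeded Trip12 in 16 of 27. Herc2, a partner of the Angelman syndrome ligase Ube3a, followed with 14.1 FPKM ± 2.73, below Trip12 in 23 of 27 libraries and above Herc1 in 26. Herc1, with 11.6 ± 2.23, exceeded Ubr4, with 10.7 ± 1.72, in 21 of 27. Birc6 was lowest at 6.29 FPKM ± 1.04, below Ubr4 in every library. The plot of FPKM by library shows these levels for each mouse and hemisphere.

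**Figure D1:**
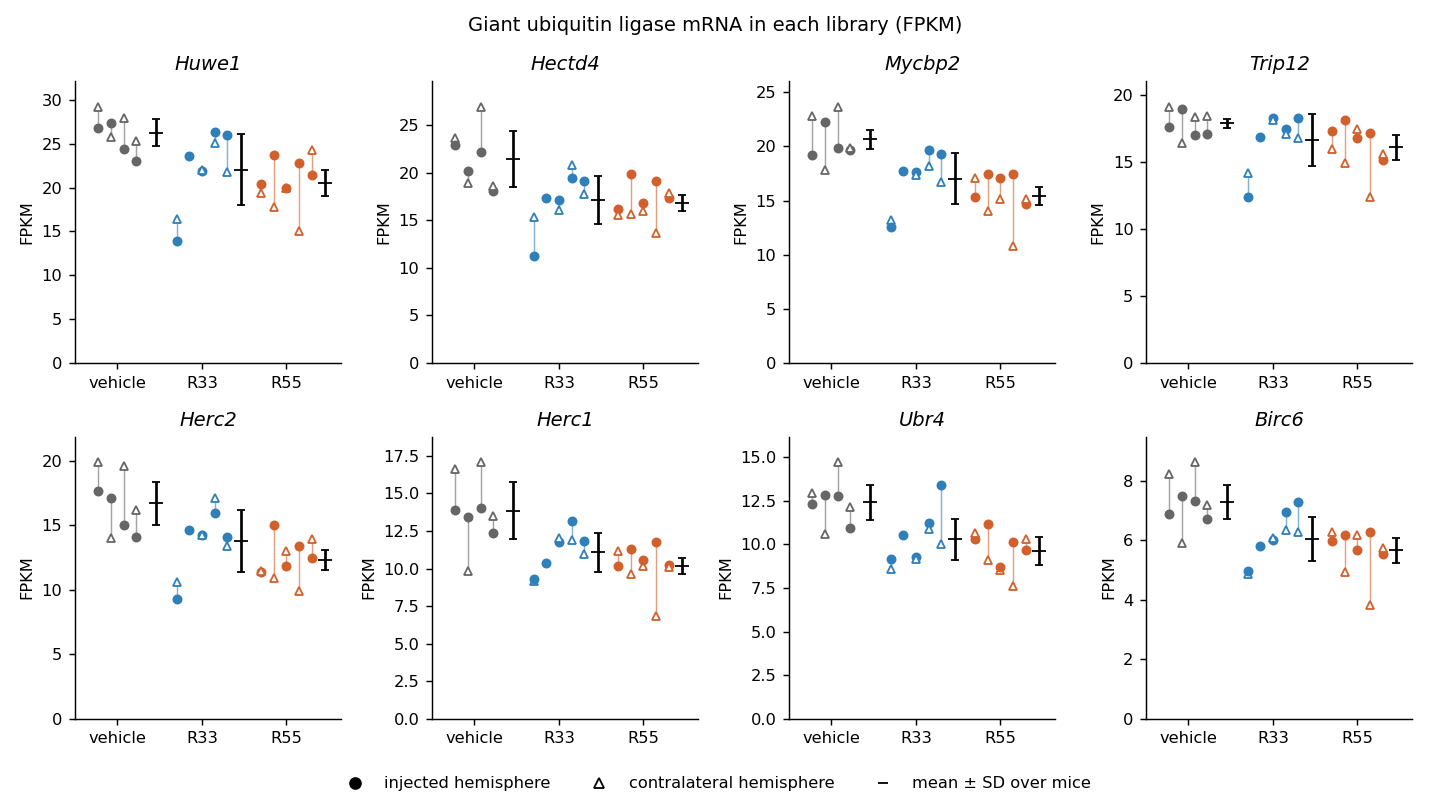
FPKM (vertical axis, linear from 0) of the 8 ligases in each of 27 libraries by treatment; filled circles are injected and open triangles contralateral hemispheres, joined for a mouse, and the black mark is the mean ± SD over mice. For all 8 genes the mean was highest in vehicle and lowest in R55, and the R33 mouse AD and the contralateral library of R55 mouse Q lie low in most panels.

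All 8 members were lower in R55 than in vehicle mice, with every R55 mouse below every vehicle mouse when the hemispheres of a mouse were averaged. Among all tested genes 1.41% had that arrangement (183 of 12976), and since this contrast chose the members nothing further is read from it. In Herc2 the vehicle mice had 15.6 (J), 15.2 (M), 17.3 (L) and 18.8 (AH) FPKM. The R55 mice had 12.5 (P), 11.4 (AA), 11.7 (Q), 13.2 (R) and 12.96 (AB) FPKM. The highest R55 mouse thus lay under the lowest vehicle mouse, and the means were 16.7 ± 1.67 (SD, n = 4) and 12.3 ± 0.775 (SD, n = 5).

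Mycbp2 had 20.0 (J), 19.8 (M), 21.8 (L) and 21.0 (AH) FPKM in vehicle mice. After R55 it had 16.1 (P), 16.2 (AA), 14.1 (Q), 14.9 (R) and 15.7 (AB) FPKM. This was the widest gap of the 3 genes given mouse by mouse here, with means of 20.6 ± 0.911 and 15.4 ± 0.871. Trip12 had 17.7 (J), 17.8 (M), 17.7 (L) and 18.4 (AH) FPKM in vehicle mice and 17.1 (P), 16.6 (AA), 14.8 (Q), 15.4 (R) and 16.5 (AB) after R55. Here the gap between the closest mice, L and P, was narrow beside the spread within R55. Of the other members, mean levels in vehicle and R55 mice were 26.3 ± 1.57 and 20.5 ± 1.49 FPKM for Huwe1, 21.4 ± 2.98 and 16.8 ± 0.818 for Hectd4, and 13.9 ± 1.89 and 10.2 ± 0.530 for Herc1. Ubr4 had 12.4 ± 1.003 and 9.63 ± 0.826 FPKM, and Birc6 7.30 ± 0.574 and 5.66 ± 0.416.

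In the limma fit on log2(FPKM + 1) with treatment and hemisphere as factors, the difference of R55 from vehicle was -0.41 for Herc2 (SE 0.097), -0.40 for Mycbp2 (SE 0.086) and -0.40 for Herc1 (SE 0.091). It was -0.35 for Huwe1 (SE 0.10), -0.34 for Ubr4 (SE 0.074), -0.33 for Hectd4 (SE 0.092), -0.32 for Birc6 (SE 0.080) and -0.15 for Trip12 (SE 0.069). These are differences of log2(FPKM + 1), and they slightly understate the change of a gene at a low level such as Birc6. The median of the members was -0.34, against 0.03 over all tested genes, 39.8% of which were lower. At an adjusted p under 0.05, 0 of the 8 members and 1 of 12976 genes (0.00771%) were called by limma. That gene was the calcium channel Ryr2, named after its values were seen. At an unadjusted p under 0.05 the counts were 8 members and 1096 genes (8.45%). Since this contrast chose the members, their counts here and in the fits that follow are a description. They are not read against the share of all genes. The limma fit above takes the hemispheres of a mouse as separate. With the mouse as a modelled correlation the counts were 7 members, without Trip12, and 519 genes, with 1 value per mouse they were 7 and 440, and in neither was any gene called, Ryr2 included. In the fit by libraries, limma voom on the recovered fragments also called 0 members. Without the R33 mouse AD, which enters this contrast only through the shared estimate of the spread, 50 genes were called (0.385%), 7 members among them, all but Trip12. The differences themselves stayed at -0.41 to -0.15. In bulk tissue a lower level cannot be told apart as less RNA per cell or fewer of the cells that make it.

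**Figure D2:**
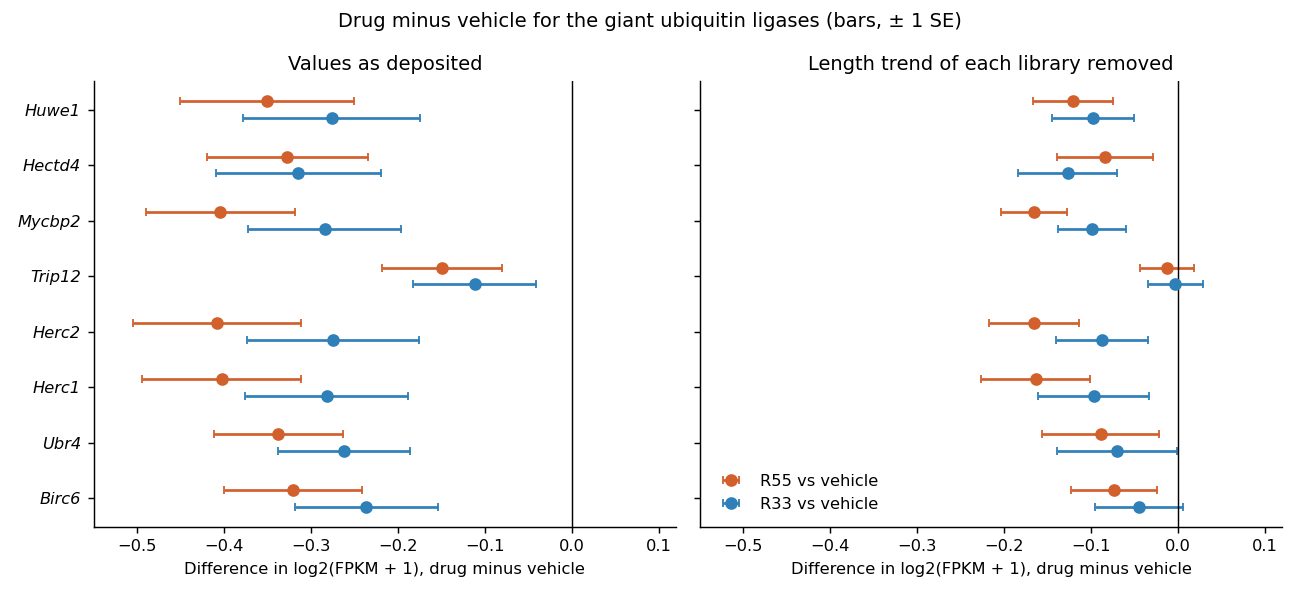
Difference from vehicle in log2(FPKM + 1) for R55 (orange) and R33 (blue), points with ± 1 SE from the limma fit, from the values as deposited (left) and after removal of the length trend of each library (right). On the left all 16 points lie below 0, between -0.41 and -0.11, and on the right they lie between -0.17 and 0.00.

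R33 was given at the same dose and time, and its comparison used the same vehicle libraries as R55, so the 2 sets of differences are not independent. All 8 members were below vehicle on average, from -0.31 for Hectd4 (SE 0.095) through -0.28 for Mycbp2 (SE 0.088), Herc1 (SE 0.094) and Huwe1 (SE 0.10), -0.27 for Herc2 (SE 0.099), -0.26 for Ubr4 (SE 0.076) and -0.24 for Birc6 (SE 0.082) to -0.11 for Trip12 (SE 0.071). Of the members 0 were called, as were 0 of all tested genes (0%), with 7 members and 762 genes at an unadjusted p under 0.05. Averaged over hemispheres, every R33 mouse lay below every vehicle mouse in 1 member, Mycbp2, and in 0.416% of all tested genes. Mycbp2 had 17.5 (K), 17.7 (AE), 18.0 (O), 18.9 (N) and 12.9 (AD) FPKM in the R33 mice. Mouse AD stood far below the other 4, and it did so in Herc2 too, where the R33 mice had 14.3 (K), 14.6 (AE), 13.7 (O), 16.5 (N) and 9.95 (AD) FPKM. Without AD the median difference of the members from vehicle was -0.17 in place of -0.28, with Trip12 at -0.03. At the other end, this median was -0.33 without R33 mouse N, the lowest with 1 mouse left out.

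The comparison of R55 with R33 uses the same R55 libraries as the contrast that chose the members. The members' values, intervals and counts in it are therefore a description and are not read against those of all genes. No member passed the test between R55 and R33. The difference of R55 from R33 ran from -0.13 for Herc2, with a 95% interval of -0.33 to 0.06, to -0.01 for Hectd4, with an interval of -0.20 to 0.17. For Mycbp2 it was -0.12 (interval -0.29 to 0.05) and for Herc1 -0.12 (interval -0.30 to 0.06). The intervals of all 8 included 0, with limma adjusted p-values of 0.9998, but they do not show that the compounds act alike, since they reach to -0.33 for Herc2. Of the members 0 were called, and 0 of all tested genes (0%), with 0 members and 149 genes at an unadjusted p under 0.05. These values rest in part on single mice. With 1 mouse left out at a time, the median of the members was highest without R33 mouse O, at -0.04, and lowest without R33 mouse AD. Without AD the median was -0.17 in place of -0.08, and 5 members and 1338 genes (10.3%) had an unadjusted p under 0.05. Herc2 was then at -0.25 (SE 0.080, interval -0.41 to -0.09, limma adjusted p = 0.394) and Mycbp2 at -0.22 (SE 0.072, interval -0.37 to -0.07), while Hectd4, Ubr4 and Birc6 kept intervals that include 0. At an adjusted p under 0.05, 0 members and 2 of all genes (0.0154%) were called without AD. The intervals without AD take the hemispheres of a mouse as separate, and no fit without AD had a mouse term. With all mice, the mouse as a modelled correlation gave Herc2 a wider interval of -0.36 to 0.09.

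Long transcripts as a class were lower in the R55 libraries. Among tested genes outside the members, the median difference from vehicle was 0.11 for 881 transcripts under 1000 bp, 0.04 for 4964 of 2000 to 4000 bp, -0.13 for 714 of 8000 to 16000 bp and -0.24 for 31 above that. Between 14000 and 16000 bp, the length of 7 members, 35 other genes had a median of -0.25, and 97.1% of them were lower. The 7 members of that length had -0.32 to -0.41, values that also chose them, so that their place within the class is not read further. Trip12, the shortest, had -0.15 against a median of -0.13 for 8000 to 16000 bp. For R33 the 35 genes had a median of -0.21, and the 7 members had -0.24 to -0.31.

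**Figure D3:**
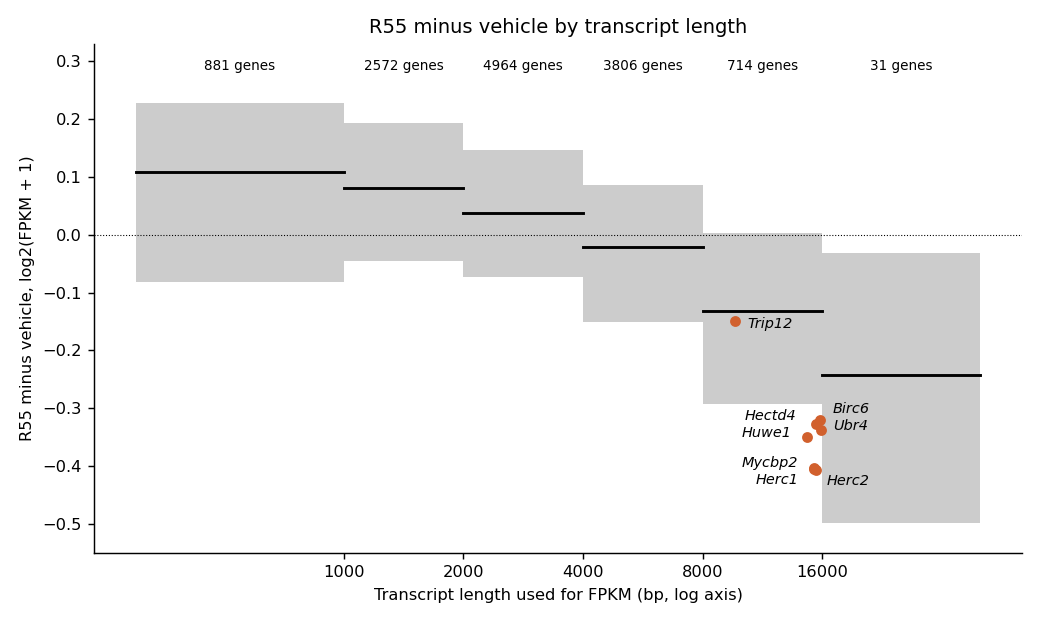
Difference of R55 from vehicle in log2(FPKM + 1) against transcript length (bp, log axis); black lines are medians and grey boxes the 10th to 90th percentiles of tested genes in 6 length classes, the outer 2 open-ended, and orange points are the 8 members. Medians go from 0.11 in the shortest class to -0.24 in the longest, 7 members sit just under the 16000 bp mark at -0.32 to -0.41, and Trip12 lies beside the median of its class.

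Single libraries differed in this trend, and not all R55 libraries had it. The Spearman correlation of each library's deviations from the gene means with transcript length, over tested genes other than the members, ran from -0.70 in the contralateral library of R55 mouse Q to 0.41 in the injected library of the same mouse. It was positive in 5 of 10 R55, 7 of 9 R33 and 7 of 8 vehicle libraries, with medians of -0.03, 0.13 and 0.23. It was -0.69 and -0.43 in the injected and contralateral libraries of R33 mouse AD and -0.44 in the contralateral library of R55 mouse AB. These 4 libraries also had the lowest mean level of the members, between -0.51 and -0.24 on the log2 scale relative to the members' own means. Over the 27 libraries the mean deviation of the members and this length correlation had a Pearson r of 0.82 (Spearman rho 0.68), and r was 0.69 without the 2 libraries farthest from the median. Within vehicle, R33 and R55 it was 0.75 (n = 8), 0.89 (n = 9) and 0.81 (n = 10). Libraries of 1 mouse share an animal, and all libraries share the scaling to a fixed total. The number of fragments in a library did not follow the members (r = 0.03).

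**Figure D4:**
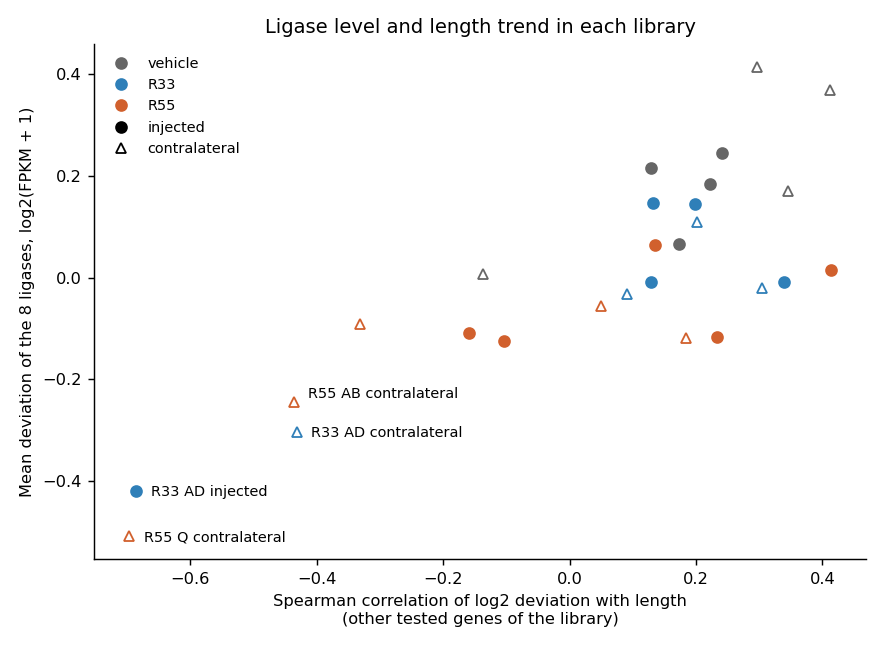
Mean deviation of the 8 members from their own means in log2(FPKM + 1) against the Spearman correlation of log2 deviation with transcript length over the other tested genes, 1 point for each of 27 libraries, coloured by treatment and shaped by hemisphere. The points run from the lower left, where 4 named libraries of mice Q, AD and AB lie, to the upper right, where the vehicle libraries with the highest members' levels lie; R55 libraries are found at both ends of the horizontal axis, from -0.70 to 0.41.

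When a smooth trend on length was removed from each library, the difference of R55 from vehicle came to -0.17 for Herc2 (SE 0.052), -0.17 for Mycbp2 (SE 0.038), -0.16 for Herc1 (SE 0.062) and -0.12 for Huwe1 (SE 0.046). It was -0.09 for Ubr4 (SE 0.067), -0.08 for Hectd4 (SE 0.055), -0.07 for Birc6 (SE 0.049) and -0.01 for Trip12 (SE 0.031). The median was -0.10 in place of -0.34, and R55 and vehicle mice did not overlap in 1 member, Mycbp2, in place of 8, against 0.701% of all tested genes with every R55 mouse below. For R33 the values went to -0.13 for Hectd4 through -0.00 for Trip12, with a median of -0.09, and against the same vehicle mice Mycbp2 was the member without overlap, an arrangement found in 0.293% of all tested genes. After the removal 0 members and 0 of all genes (0%) were called in either comparison. At an unadjusted p under 0.05 there were 4 members and 856 genes for R55 and 3 members and 679 genes for R33. With the mouse as a modelled correlation there were 4 members and 352 genes for R55 and 1 member and 260 genes for R33. The choice of the members by the R55 contrast, which shares its vehicle mice with R33, bears on these counts too. They are therefore not read against those of all genes. The removal takes away any difference that long transcripts share, whether it arose in the tissue or in the libraries, and these cannot be told apart here.

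Members varied together. Over the 27 libraries their levels had pairwise Pearson correlations of 0.65 (Ubr4 with Trip12) to 0.95 (Mycbp2 with Birc6), with a median of 0.85 over 28 pairs. After removal of the length trend the correlations ran from -0.20 (Hectd4 with Trip12) to 0.81 (Herc1 with Birc6), with a median of 0.34. The genes outside the list whose levels were most like the mean of the members were Vps13d (r = 0.97), 4932438A13Rik (0.96), Htt (0.96), Wdfy3 (0.95) and Ep400 (0.95), with lengths of 10798 to 15883 bp. For single members the nearest were Golgb1 for Herc1 (r = 0.94) and Birc6 (0.95), Vps13d for Herc2 (0.93) and Mycbp2 (0.96), and Wdfy3 for Huwe1 (0.97). Ubr4 was nearest to Fat3 (0.91), Hectd4 to Arid1a (0.93) and Trip12 to the deubiquitinase Usp34 (0.94). All of these have transcripts of 8939 bp or more, and in the class of 14000 to 16000 bp the median correlation with the mean of the members was 0.78.

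The side of the injection was not used to choose the members. In R33 and R55 mice the injected side received the compound as well as the surgery, so the pooled difference cannot tell these apart. Vehicle mice had the surgery without a compound. Their mean differences over the members, injected minus contralateral, were 0.24 (J), -0.10 (M), -0.23 (L) and -0.15 (AH) on the log2 scale. No member passed the test between hemispheres. The difference of injected from contralateral ran from 0.00 for Herc2 (SE 0.079) to 0.08 for Mycbp2 (SE 0.070), with limma adjusted p-values of 0.9999. Of the members 0 were called, and 0 of all tested genes (0%), with 0 members and 450 genes at an unadjusted p under 0.05. In the 13 mice with both libraries, Mycbp2 was higher on the injected side in 7, with a mean difference of 0.08 ± 0.25 (SD), and a two-sided exact sign-flip permutation test gave p = 0.299. For Ubr4 it was higher in 8 of 13 mice, by 0.07 ± 0.19 on average (exact permutation p = 0.204). Herc2 was higher in 5 of 13, with a mean of -0.01 ± 0.24 (exact permutation p = 0.915). The exact p-values of the other 5 members lay between 0.404 for Birc6 and 0.728 for Hectd4, where the smallest that 13 mice allow is 0.000244. With the mouse as a replicate block the median difference of the members was 0.05, the smallest adjusted p among them was 0.902, and 0 were called.

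**Figure D5:**
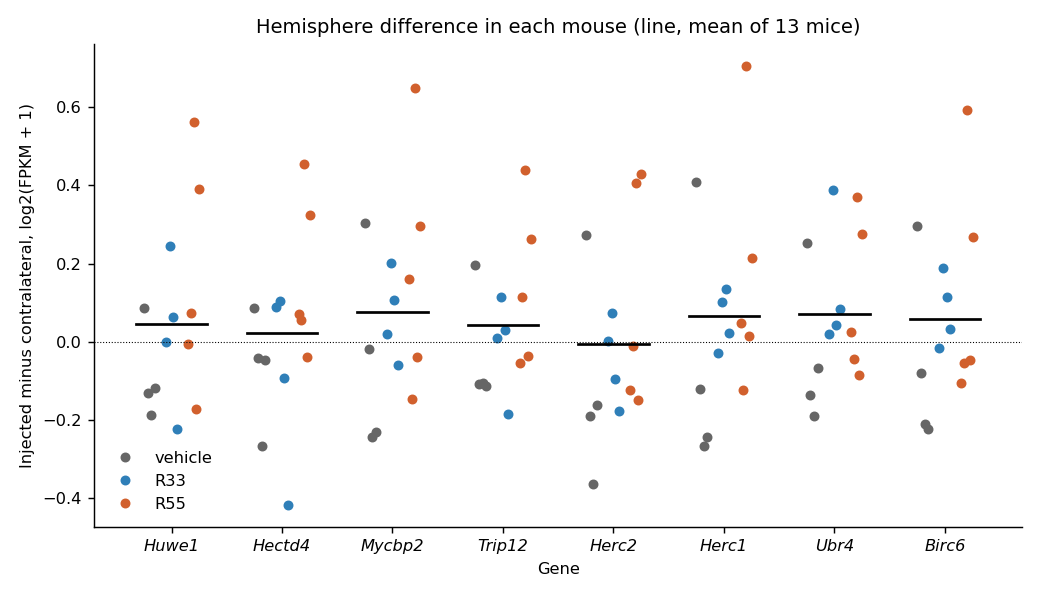
Injected minus contralateral difference in log2(FPKM + 1) for each of 13 mice and each of the 8 members, coloured by treatment, with the mean of the 13 mice as a line. The means lie between -0.01 and 0.08, and R55 mouse Q has the highest point in 6 of the 8 genes.

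R55 mouse Q stood out in these pairs. Its injected library had 11.8 FPKM of Herc1 and its contralateral library 6.82, and its mean difference over the members was 0.52 on the log2 scale. R55 mouse AB followed with 0.31 and vehicle mouse J with 0.24, and the lowest values were -0.23 and -0.15 in vehicle mice L and AH. The difference of R55 from vehicle was -0.30 to -0.06 over the members in the injected hemisphere fitted alone and -0.52 to -0.24 in the contralateral one. The interaction of R55 with hemisphere was 0.14 (Ubr4, SE 0.15) to 0.26 (Huwe1, SE 0.20), with adjusted p-values of 0.9994. It was called in 0 members and in 0 of all tested genes (0%), with 0 members and 239 genes at an unadjusted p under 0.05. In the same contrast all 6 oligodendrocyte markers had values between -0.76 and -0.57 (median -0.70) and all 5 striatal markers between -0.86 and -0.25 (median -0.67). None of these markers was called, and none had an unadjusted p under 0.05. The median was -0.19 for astrocyte, -0.18 for choroid plexus, -0.09 for neuron, 0.07 for microglia and 0.09 for endothelial markers. Alas2, the only red blood cell marker that passed the filter, was at -0.24. The part of any of these markers in the members' values was not tested. Without mouse Q the median of the interaction over the members was 0.11 in place of 0.22, and after removal of the length trend 0.02. Without vehicle mouse J this median was 0.31, the highest with 1 mouse left out. The interaction of R33 with hemisphere had a median of 0.10, with 0 members called and 0 of all genes (0%), and 49 genes at an unadjusted p under 0.05.

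Other genes of the ubiquitin pathway are given by lists drawn up by protein class or role, some genes being on more than 1 list. No gene of any of them was called by limma for R55 or R33. At an unadjusted p under 0.05 for R55, where all tested genes had 8.45%, there were 3 of 22 other HECT ligases, 5 of 16 other large ligases, 3 of 6 genes of the UBR-box list, 3 of 15 deubiquitinases and 1 of 34 RING and cullin ligases, all lower. There were also 2 lower and 2 higher of 23 partners and 1 higher of 26 E1 and E2 enzymes, and none of the ubiquitin precursors and inhibitors of apoptosis. Among the 22 other HECT ligases the median difference of R55 from vehicle was -0.05, with 15 lower and 7 higher, and the highest was 0.21 for Herc6 (SE 0.12), an interferon-induced relative of the Herc genes. The 16 other ligases of large proteins had a median of -0.15, with 15 lower, and Hecw1 was the highest at 0.01 (SE 0.13). After removal of the length trend that median was -0.03, with 12 lower. Of the 6 other genes of the UBR-box and N-degron list 5 were lower, with a median of -0.19, and Ubr7 was highest at 0.10 (SE 0.051). The 2 measured inhibitors of apoptosis besides Birc6 were at -0.04 (Xiap, SE 0.083) and -0.00 (Birc2, SE 0.062).

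Genes earlier in the cascade, ordinary ligases and deubiquitinases had medians close to that of all tested genes. The 26 tested E1 and E2 enzymes had a median of 0.04, with 5 lower, from -0.09 for the E1 enzyme Uba6 (SE 0.081) to 0.11 for the E2 enzyme Ube2h (SE 0.048). The 4 ubiquitin precursor genes had 0.06 (Ubb, SE 0.071) to 0.17 (Rps27a, SE 0.16), and none was lower. The 34 RING and cullin ligases of ordinary size had a median of 0.04, with 13 lower, from -0.33 for Cbl (SE 0.16) to 0.14 for Znrf1 (SE 0.078). The 15 deubiquitinases, which remove ubiquitin, had a median of -0.00, with 8 lower, from -0.37 for Usp34 (SE 0.12), a transcript of 12200 bp, to 0.10 for Uchl5 (SE 0.078). Known substrates and partners of the members, 23 in all, had a median of 0.03, with 8 lower, from -0.22 for Ube3a (SE 0.10) to 0.16 for the autophagy protein Map1lc3b (SE 0.061). Over all tested genes the median was 0.03. For R33 the medians were -0.11 for the UBR-box list, -0.10 for the other large ligases, -0.05 for the other HECT ligases, -0.03 for deubiquitinases, -0.01 for partners, 0.01 for RING and cullin ligases, 0.02 for inhibitors of apoptosis, 0.03 for ubiquitin precursors and 0.05 for E1 and E2 enzymes. The median transcript length was 8524 bp in the large ligases, 5484 in the other HECT ligases and 3388 in E1 and E2 enzymes.

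All 10 neuron markers passed the filter, and their summed level was 2541 to 3723 FPKM in vehicle, 2592 to 3800 in R33 and 2914 to 3842 in R55 libraries. The mean level of the neuron markers followed that of the members with r = 0.11 over 27 libraries. For microglia, astrocyte, oligodendrocyte, endothelial, striatal and choroid plexus markers r was between -0.27 and 0.22. The median difference of R55 from vehicle was 0.10 for neuron, 0.08 for microglia, 0.17 for astrocyte, 0.13 for oligodendrocyte, -0.12 for endothelial, -0.19 for striatal and -0.51 for choroid plexus markers, with none called, and their part in the members' difference was not tested. Summed choroid plexus markers ranged from 4.08 to 1661 FPKM over the libraries, and whether blocks differed in what they held beside cortex was not tested. Of the red blood cell markers only Alas2 passed the filter, and Hba-a1, Hba-a2, Hbb-bs and Hbb-bt were listed at 0 in all 27 libraries. Alas2 had 1.103 to 2.38 FPKM in vehicle, 1.38 to 8.17 in R33 and 1.003 to 5.71 in R55 libraries. Its difference from vehicle was 0.55 for R55 (SE 0.23) and 0.39 for R33, called in neither. Over the libraries r of Alas2 with the members was -0.56 (Spearman rho -0.37), and r was 0.02 after removal of the length trend. The part of Alas2 in the result was not tested. Mouse labels fall into a series of 1 letter and a series of 2. The mean deviation of the members was 0.12 to 0.30 for the 3 vehicle mice with 1 letter and -0.25 to -0.09 for the 3 R55 mice with 1 letter. With 2 letters it was 0.29 for the single vehicle mouse and -0.10 and -0.09 for the 2 R55 mice. In R33 the mean deviation was -0.01 to 0.13 for the 3 mice with 1 letter. For the 2 R33 mice with 2 letters it was -0.36 (AD) and -0.01 (AE). With the series as a covariate the median difference of R55 from vehicle was -0.34.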

How the data were processed

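Cortex RNA of the 27 libraries was prepared by the authors with a stranded mRNA kit, sequenced as read pairs and aligned by HISAT2 to GRCm39. What the authors deposited are FPKM values for 26264 genes in 32 libraries, of which 5 are not in the sample list and were not used here. The counting tool and annotation are not given in the sources used here. Of the values, 100.0% were whole multiples of 1 fragment within 0.01, which gave the fragments and transcript lengths behind the deposited FPKM values.

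The 12976 genes whose mean reached 1 FPKM were fitted as log2(FPKM + 1) with limma 3.58.1 in R 4.3.3, with treatment and hemisphere as factors, an intensity trend and Benjamini-Hochberg adjustment, called under 0.05. The mouse was not a term, so p-values take libraries of 1 mouse as separate. Hemispheres were paired by animal. Their deviations from the group means correlated over 0.1 in 11 of 13 mice (mean r 0.39 over genes). Length trends were removed by lowess (span 0.3). From each list the genes with the lowest and highest R55 difference were named, except for an item that is not reported here, and nearest genes were those with the highest r. Members, lists and tests were chosen with earlier results of these data known. Scripts were tested on simulated data. Alternatives were another pseudocount, no filter, median-of-ratios scaling, mouse terms, each hemisphere, other covariates, voom, removal of the length trend and each mouse left out. Python 3.11.15 with numpy 2.4.6 and scipy 1.17.1 served for the rest. Promoters were read with pysam 0.24.0 using GENCODE annotation of GRCm39. Protein sequences were not used here.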

Additional observations from a re-analysis of the deposited data

Results flagged for a closer look

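The groups of 4 or 5 libraries (1 treatment and 1 hemisphere) were searched for a library whose gap to its neighbour is large beside the range of its group, over 48 combinations of a group and a member. The injected library of R33 mouse AD was marked as far below the other 4 of its group in 4 members. It had 9.28 FPKM of Herc2, 12.6 of Mycbp2, 11.2 of Hectd4 and 12.4 of Trip12, with gaps of 0.722, 0.713, 0.719 and 0.77 of the group's range. The members vary together and these 4 marks are of 1 library, so they are not separate events, and about 1 in 20 such groups is marked by chance. The same library had a length correlation of -0.69 and the highest Alas2 level of all libraries, 8.17 FPKM, and the part of either in its low values was not tested.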

How the results depend on the processing

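Alternatives that combine removal of the length trend with another change were chosen after seeing the data. The count of all genes called for R55 against vehicle was 1, and it was 12 with only the compared treatments and 0 with no filter, median-of-ratios scaling, the mouse as a modelled correlation, 1 value per mouse, either hemisphere alone, the label series as a covariate, and removal of the length trend alone or with the mouse correlation or either hemisphere. With each mouse left out it was 0 to 50, and the members called were 0 to 7, both highest without R33 mouse AD. The median R55 difference of the members, -0.34, was -0.105 after removal of the length trend alone and with the mouse correlation, and -0.111 and -0.122 with the injected and contralateral side alone. For R33 the same 4 values were -0.0922, -0.0907, -0.056 and -0.116 in place of -0.28, and 1 gene (Vgll2) was called with no filter. For R55 against R33, leaving out a mouse gave 0 to 2 genes called (Dusp1 and Ier2, without AD). Between hemispheres the mouse correlation gave 1 gene (Gbe1), and 5 with the length trend removed (Gbe1, A2m, Inha, Mpped1 and Tnfrsf12a), none a member. These genes were named after their values were seen.

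The hemisphere difference of Herc2 turned from 0.00066 to -0.00717 with the mouse as a replicate block, -0.00219 with the mouse correlation, and -0.0331, -0.0363 and -0.0344 with the length trend removed alone, with the block and with the correlation, and was -0.0339 to 0.03 with a mouse left out. That of Hectd4 turned to -0.011, -0.00795 and -0.0098 in the same 3 fits without the length trend, and was -0.012 to 0.0504 with a mouse left out. The interaction of R55 with hemisphere turned to -0.032 for Birc6 and -0.0744 for Ubr4 in those 3 fits. None passed the threshold. The block changed no other call. The members' values are limited less by depth than by the SD between mice of a treatment, 0.11 to 0.18 on the log2 scale, and that between the hemispheres of a mouse, 0.12 to 0.19, which was the larger in 5 members.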
